A study of Homo sapiens with 6 samples.

Results

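The 9 genes described here, NEUROD1, INSM1, NKX2-1, FOXA2, SOX2, POU3F2, ONECUT2, PROX1 and HES6, encode transcription factors of the neuroendocrine and neural lineages. They were taken by symbol from GENCODE 29 and each matched 1 Ensembl gene ID, so 9 of the 58735 genes in the deposited table are covered. Messenger RNA was sequenced in 6 libraries from 2 human prostate cancer cell lines. H660 (NCI-H660) is a model of neuroendocrine prostate cancer, and C4-2B MDVR was derived from the luminal line C4-2B and resists the antiandrogen drug enzalutamide. Each line gave 1 library with PLXND1 siRNA 1, 1 with PLXND1 siRNA 2 and 1 with a control siRNA, so all 6 libraries come from cells given an siRNA. PLXND1 encodes the semaphorin receptor Plexin D1, and the series asks about its part in the neural plasticity of treatment-resistant prostate cancer. Each siRNA and each control was sequenced once per line. The libraries of a line got different siRNAs and so were treated separately, but nothing in the labels says that they came from independent cultures. The p-values measure the spread between these libraries, which may not reflect that between cultures. In the tests of the siRNAs within a line that spread also holds any difference between siRNA 1 and siRNA 2.

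Prostate cancers that escape hormone therapy can lose luminal identity and take on neuroendocrine features, and transcription factors from neural and endocrine development mark and drive that state. The basic helix-loop-helix factor NEUROD1 starts neuroendocrine programmes, the zinc finger protein INSM1 represses non-endocrine genes, and the pioneer factor FOXA2, the homeodomain factors NKX2-1 and PROX1, the cut-homeodomain factor ONECUT2, the POU factor POU3F2 (BRN2) and the HMG-box factor SOX2 act in the same cells. HES6 is a relative of the Notch effector HES1 that opposes HES1 and favours neuronal differentiation.

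The libraries held 17655802 to 24105369 fragments assigned to genes. PLXND1 itself was at 7.62 and 7.54 FPKM with siRNA 1 and siRNA 2 in H660, against 9.13 FPKM in the H660 control, and at 1.57 and 3.10 FPKM in C4-2B MDVR, against 7.40 FPKM in the control of that line. FPKM, as computed by the authors, is the number of fragments scaled to the exon length of the gene and to a library total. That total was not the number of fragments given above. The single libraries were thus at 83.5% and 82.6% of the control in H660 and at 21.2% and 41.8% in C4-2B MDVR, so the knockdown in H660 was small. Neuroendocrine markers matched the H660 label, with all 10 of 10 at or above 1 FPKM in each H660 library and a sum of 958 to 994 FPKM, against 1 of 10 and a sum of 4.64 to 5.97 FPKM in C4-2B MDVR. Of the 9 luminal prostate markers 3 reached 1 FPKM in H660, with 2 listed at 0, and 9 did in C4-2B MDVR. The luminal sums were 394 to 432 FPKM in H660 and 771 to 1560 FPKM in C4-2B MDVR. KRT8 and KRT18 were the luminal markers with higher means in H660, 255 and 160 FPKM, against 95.5 and 96.5 FPKM in C4-2B MDVR. The C4-2B MDVR control stood apart in its share of mitochondrial fragments, 3.38% against 6.83% to 9.64% in the other 5 libraries. The part of this in the results was examined only by a fit without mitochondrial genes, given with the other alternatives at the end.

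The factors separated the lines: 6 of the 9 were present in H660 and near or at 0 in C4-2B MDVR, HES6 and ONECUT2 were present in both, and NEUROD1 was near or at 0 in both. In H660 the levels, which are per exon length and so can be set beside each other, ran in the order NKX2-1, HES6, SOX2, INSM1, POU3F2, PROX1, ONECUT2, FOXA2 and NEUROD1. Means over the 3 H660 libraries were 167 ± 17.2 FPKM for NKX2-1, 125 ± 17.6 for HES6, 118 ± 16.2 for SOX2, 16.8 ± 1.19 for INSM1, 4.17 ± 0.308 for PROX1, 2.08 ± 0.257 for ONECUT2 and 1.56 ± 0.228 for FOXA2 (SD, n = 3 libraries of different siRNAs), and POU3F2 lay between 9.35 and 10.6 FPKM. HES6 and SOX2 overlapped in their ranges over the H660 libraries and could not be ordered; the other neighbours did not overlap. These bulk values cannot tell fewer cells of a type apart from less RNA per cell.

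**Figure D1:**
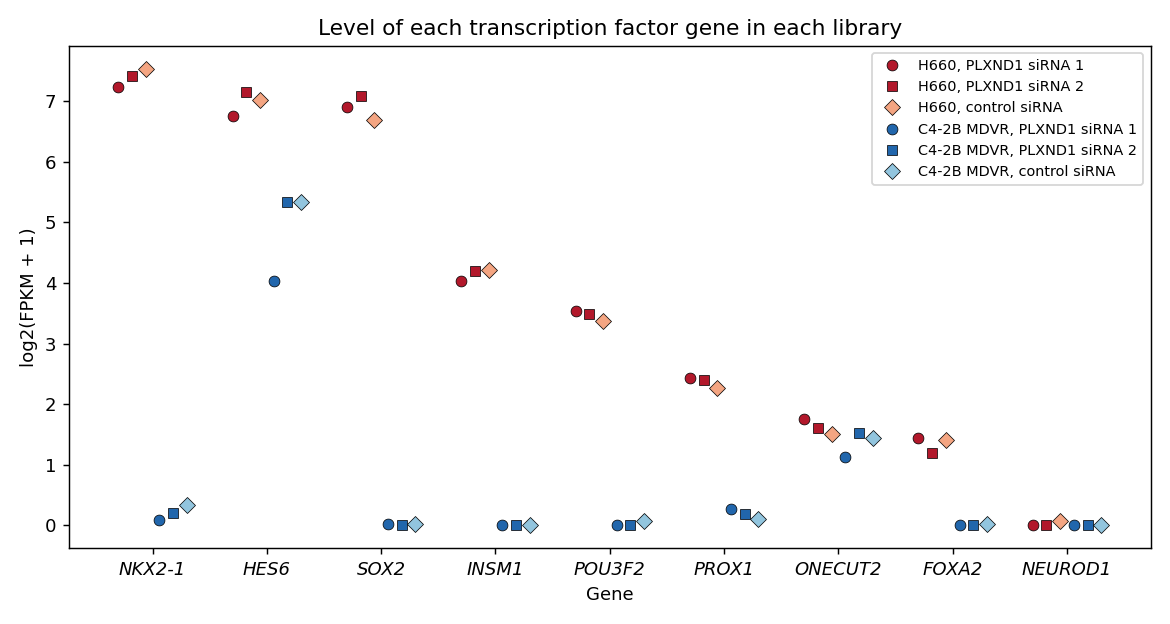
Level of each of the 9 transcription factor genes in each library, as log2(FPKM + 1), with 1 point per library. H660 points are red (control light) and C4-2B MDVR points blue (control light); NKX2-1, SOX2, INSM1, POU3F2, PROX1 and FOXA2 stand above 1 FPKM in H660 and below it in C4-2B MDVR, and HES6 is lowest in the C4-2B MDVR library with siRNA 1 (15.4 FPKM).

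A filter on low values kept a gene with a mean of at least 1 FPKM over the 3 libraries of at least 1 line, and 8 of the 9 factors passed it. Of these, 6 passed through H660 alone, so they had to differ between the lines and their number supports nothing. The difference between the lines was tested with limma on log2(FPKM + 1) in a fit of line and treatment, and called at an adjusted p under 0.05 and at least 2-fold. In that comparison 38.0% of the 15638 genes tested were called, 20.1% as higher in H660, and 7 of the 8 factors were called as higher in H660. Among the 11196 genes at 1 FPKM or more in both lines, where the filter does not fix the answer, 27.3% were called, 11.4% as higher in H660; of the 2 factors there HES6 was called and ONECUT2 was not.

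NKX2-1, the homeodomain factor that specifies lung, thyroid and parts of the forebrain, had the highest level. It lies on chromosome 14 (ENSG00000136352, 36516392 to 36521149 in GRCh38, minus strand). NKX2-1 was at 149, 169 and 184 FPKM in H660 with siRNA 1, siRNA 2 and the control siRNA, against 0.0628, 0.156 and 0.259 FPKM in C4-2B MDVR in the same order of siRNAs. All H660 libraries were far above all C4-2B MDVR libraries, and in the H660 control the gene stood above 99.5% of protein-coding genes. The summed fragments, 39307 in H660 and 29 in C4-2B MDVR, gave a ratio of 1050 (95% interval 728 to 1560, exact binomial, counting error only), and limma gave 7.18 ± 0.11 log2 units (SE, adjusted p = 1.1e-06). Its antisense neighbour NKX2-1-AS1 overlaps it and was at 11.1, 9.99 and 14.7 FPKM in H660; the sources used here do not say whether counting used strand, so reads of the pair may be shared. NEUROD1, FOXA2, SOX2, PROX1 and HES6 also overlap other genes, each at no more than 0.667 FPKM in any library. Of the 7 lung-type markers, 2 reached 1 FPKM in H660 and 0 in C4-2B MDVR. These were SFTPB, a surfactant gene that NKX2-1 is known to activate in lung, at 48.0, 49.1 and 72.5 FPKM in H660, and SFTA3, at 38.1, 39.4 and 43.8 FPKM. The other 5 had means under 1 FPKM in both lines: in H660, SFTPC and SCGB3A2 were listed at 0, and SFTPA1, SCGB1A1 and NAPSA averaged 0.369, 0.218 and 0.0799 FPKM.

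SOX2, an HMG-box factor of neural progenitors and pluripotent cells, was at 119, 134 and 102 FPKM in H660 with siRNA 1, siRNA 2 and the control. The C4-2B MDVR libraries held 1, 0 and 1 fragments of it. Across the lines this was 22063 against 2 fragments, a ratio of 8510 with a wide counting interval of 2360 to 70300, and limma gave 6.87 ± 0.12 log2 units (adjusted p = 1.1e-06). The gene is a single exon on chromosome 3 (ENSG00000181449, 181711924 to 181714436, plus strand), within the long noncoding gene SOX2-OT on the same strand, which was at 0.413, 0.460 and 0.382 FPKM in H660.

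INSM1 is the zinc finger protein that represses non-endocrine genes. It was at 15.4, 17.4 and 17.6 FPKM in H660 with siRNA 1, siRNA 2 and the control, from 1025, 1268 and 1230 fragments. It was listed at 0 in all 3 C4-2B MDVR libraries. Against a limit of 3 fragments over those 3 libraries together, INSM1 was at least 906-fold higher in H660 (limma 4.15 ± 0.11, adjusted p = 2.19e-06). It is a gene of 1 exon on chromosome 20 (ENSG00000173404, 20368121 to 20370949, plus strand).

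POU3F2, a POU factor of neuronal development, was at 10.6, 10.2 and 9.35 FPKM in H660 with siRNA 1, siRNA 2 and the control. In C4-2B MDVR it had 0, 0 and 5 fragments, the last in the control (0.0494 FPKM). The ratio of the lines was 559 (239 to 1720), and the limma difference was 3.44 ± 0.11 (adjusted p = 4.39e-06). Like SOX2 and INSM1 it has a single exon, and it lies on chromosome 6 (ENSG00000184486, 98834592 to 98839470, plus strand).

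PROX1, a homeodomain factor of lymphatic, hepatic and neural development, had low levels that still separated the lines. Its values were 4.42, 4.28 and 3.83 FPKM in H660 with siRNA 1, siRNA 2 and the control, against 0.200, 0.138 and 0.081 FPKM in C4-2B MDVR. The groups did not overlap, with a 95% counting interval of 23.7 to 38.5 for the ratio and a limma difference of 2.18 ± 0.11 log2 units (adjusted p = 1.92e-05). PROX1 lies on chromosome 1 (ENSG00000117707, 213983181 to 214041502, plus strand).

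FOXA2, a forkhead pioneer factor of endoderm, was the lowest of the factors that passed the filter. The H660 libraries held 1.72, 1.30 and 1.66 FPKM of it with siRNA 1, siRNA 2 and the control, from 105, 87 and 107 fragments, and C4-2B MDVR held 1 fragment in all, in the control. The ratio of 231 has a counting interval of 41.1 to 9140, so its size is poorly fixed at this depth (limma 1.34 ± 0.13, adjusted p = 0.000247). FOXA2 lies on chromosome 20 (ENSG00000125798, 22581005 to 22585455, minus strand). Its relative FOXA1, the pioneer factor of luminal prostate cells, stayed abundant in both lines, at 78.5, 79.5 and 79.0 FPKM in H660 and 103, 123 and 125 FPKM in C4-2B MDVR (limma −0.56 ± 0.12, under the 2-fold limit).

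NEUROD1, which marks a class of neuroendocrine tumours, failed the filter. It had 0, 0 and 4 fragments in H660 with siRNA 1, siRNA 2 and the control (0.0488 FPKM in the control) and 0 in all C4-2B MDVR libraries. At this depth a count of 0 allows up to 0.0385 FPKM in the H660 siRNA 1 library and 0.0558 FPKM in the C4-2B MDVR siRNA 2 library (3 fragments, counting error only). The gene lies on chromosome 2 (ENSG00000162992, 181673088 to 181680876, minus strand).

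HES6 and ONECUT2 were the factors present in both lines. HES6 was higher in H660, at 107, 141 and 128 FPKM with siRNA 1, siRNA 2 and the control, against 15.4, 39.3 and 39.4 FPKM in C4-2B MDVR. Its lowest H660 library was above its highest C4-2B MDVR library; the ratio was 4.07 (3.93 to 4.22) and the limma difference 2.07 ± 0.35 log2 units (adjusted p = 0.00245). ONECUT2 was at 2.36, 2.03 and 1.85 FPKM in H660 and at 1.18, 1.89 and 1.71 FPKM in C4-2B MDVR, so the lines overlapped. It did not pass (0.25 ± 0.16 log2 units, adjusted p = 0.187), although the summed fragments, 2491 against 1460, gave a ratio of 1.32 with a counting interval of 1.23 to 1.41. HES6 lies on chromosome 2 (ENSG00000144485, 238238267 to 238240662, minus strand) and ONECUT2 on chromosome 18 (ENSG00000119547, 57435685 to 57491297, plus strand).

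The promoters of these factors are shown because HES6 and ONECUT2, present in both lines, can be set beside SOX2 and POU3F2, present in H660 alone. Each line gives the 250 bases before the start of the gene in RefSeq (GRCh38.p14), 5′ to 3′ on the strand of the gene. Capitals mark CAGCTG, an E-box of the kind that basic helix-loop-helix factors bind, which reads the same on both strands, and the CCAAT box on either strand (CCAAT or ATTGG). The windows are chr2:238240039-238240288 on the minus strand for HES6, chr18:57435124-57435373 on the plus strand for ONECUT2, chr3:181711675-181711924 on the plus strand for SOX2 and chr6:98834324-98834573 on the plus strand for POU3F2.
HES6: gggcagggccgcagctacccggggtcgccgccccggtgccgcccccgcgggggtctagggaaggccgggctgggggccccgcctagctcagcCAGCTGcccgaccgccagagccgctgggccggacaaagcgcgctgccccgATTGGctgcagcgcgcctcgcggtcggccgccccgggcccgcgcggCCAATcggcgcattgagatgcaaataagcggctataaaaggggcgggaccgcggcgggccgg
ONECUT2: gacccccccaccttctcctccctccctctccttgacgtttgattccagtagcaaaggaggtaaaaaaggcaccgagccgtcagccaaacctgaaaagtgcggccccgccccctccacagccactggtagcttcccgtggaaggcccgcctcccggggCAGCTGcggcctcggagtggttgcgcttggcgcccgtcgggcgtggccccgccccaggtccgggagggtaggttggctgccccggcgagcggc
SOX2: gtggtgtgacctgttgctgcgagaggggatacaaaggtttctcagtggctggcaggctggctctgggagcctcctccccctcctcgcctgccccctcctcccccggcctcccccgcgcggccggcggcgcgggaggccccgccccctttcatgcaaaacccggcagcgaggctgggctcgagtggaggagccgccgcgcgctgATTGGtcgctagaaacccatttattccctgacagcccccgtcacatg
POU3F2: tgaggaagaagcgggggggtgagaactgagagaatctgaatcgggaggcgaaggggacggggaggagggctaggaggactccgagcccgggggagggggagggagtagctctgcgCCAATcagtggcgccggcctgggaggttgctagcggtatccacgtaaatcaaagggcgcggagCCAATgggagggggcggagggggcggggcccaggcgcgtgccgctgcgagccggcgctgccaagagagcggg
HES6 holds CAGCTG from 158 bases before its start and CCAAT boxes from 108 and 62 bases before it. ONECUT2 holds CAGCTG from 93 bases before its start. SOX2 has a CCAAT box from 47 bases before the start, and POU3F2 has them from 135 and 72 bases. Of the 6 factors with an entry in the RefSeq promoter table, which also holds NEUROD1 and NKX2-1, 2 had CAGCTG, which 14.0% of all 35116 promoter windows of this length hold, and 3 had a CCAAT box, which 11240 of the 35116 hold. The 4 windows shown are 68.8% to 77.2% G and C, against a median of 58.0% over all promoters. Of those not shown, the NEUROD1 window is at 70.0% and the NKX2-1 windows are at 70.8% and 49.6%. The marked motifs are matches of letters and say nothing of binding in these cells. INSM1, FOXA2 and PROX1 have no entry in that table.

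The related genes of the same families were called in both directions. Of 24 relatives 10 passed the filter, and 4 were called as higher and 2 as lower in H660; over all genes tested 20.1% and 17.9% were. INSM2, NKX2-4 and FOXA3 passed through H660 alone and NKX2-2 through C4-2B MDVR alone, so they had to differ and the count supports nothing. Of the 6 relatives at 1 FPKM or more in both lines, HES7 was called as higher in H660 (limma 1.27 ± 0.31, adjusted p = 0.0104). HES1 was called as lower (−1.15 ± 0.12, adjusted p = 0.000366), beside 27.3% of all such genes called either way. INSM2, the paralog of INSM1, was at 3.01, 3.74 and 2.98 FPKM in H660 and listed at 0 in C4-2B MDVR, at least 186-fold higher. NKX2-4, a close relative of NKX2-1, was at 3.10, 3.07 and 2.98 FPKM in H660 and also listed at 0 in C4-2B MDVR. FOXA3 was at 2.47, 2.73 and 2.49 FPKM in H660 and at 0.0227, 0 and 0.176 FPKM in C4-2B MDVR. In the other direction, NKX2-2, a homeodomain factor of pancreatic endocrine cells and ventral neural tube, was listed at 0 in H660 and at 2.44, 2.38 and 2.12 FPKM in C4-2B MDVR, at least 119-fold lower in H660.

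Of the other neural and neuroendocrine factors, 20 of 40 passed the filter; 14 were called as higher in H660 and 4 as lower, beside 20.1% and 17.9% of all genes tested. Those higher in H660 included NR0B2 (4.33 ± 0.11), ZNF711 (3.51 ± 0.15), TOX3 (3.32 ± 0.14), MYT1, a zinc finger factor that represses non-neuronal genes (3.26 ± 0.10), and SOX4, a progenitor factor (3.10 ± 0.14), with adjusted p of 2.17e-06 to 1.18e-05. The effector genes encode the secretory and synaptic machinery of neuroendocrine cells. Of the 24 tested, 21 were called as higher and 3 as lower in H660, beside the same shares of all genes. Among those higher were the neuronal hydrolase gene UCHL1 (6.91 ± 0.15), the granule genes SCG3 (5.70 ± 0.10) and CHGA (5.57 ± 0.10) and the complexin gene CPLX2 (4.93 ± 0.10). The 3 lower were BEX1 (−4.43 ± 0.13), SYT4 (−1.93 ± 0.31) and KIF5C (−1.26 ± 0.15). Of these genes 11 of the 20 factors and 18 of the 24 effector genes passed the filter through H660 alone, and 3 and 1 through C4-2B MDVR alone, so they had to differ and the counts are descriptions.

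REST, the repressor of neuronal genes, was at 3.75, 3.70 and 3.26 FPKM in H660 and 7.44, 8.28 and 8.05 FPKM in C4-2B MDVR. The limma difference on log2(FPKM + 1), −0.97 ± 0.11 (adjusted p = 0.000412), stayed just under the 2-fold limit. Without the added 1 it was past 2-fold. The summed fragments gave a ratio of H660 over C4-2B MDVR of 0.452 (0.428 to 0.477). Of 16 genes tested in the list of REST, its partners and antagonists, 4 were called as higher and 2 as lower in H660, shares near the 20.1% and 17.9% of all genes tested. SRRM3, a splicing factor that disrupts REST and that passed the filter through H660 alone, was higher in H660 (7.26, 8.42 and 8.05 FPKM, against 0.657, 1.08 and 0.975 FPKM in C4-2B MDVR), while its relative SRRM4 was listed at 0 in all 6 libraries. HMG20B, a subunit of the REST-linked KDM1A complex, was lower in H660 (−2.08 ± 0.13, adjusted p = 3.69e-05).

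Among Notch genes, whose effector HES1 is opposed by HES6, 3 of 8 tested were called as higher and 3 as lower in H660, beside 20.1% and 17.9% of all genes tested. All 8 were at 1 FPKM or more in both lines, where 11.4% of genes were called as higher. The ligand genes DLL1 (4.43 ± 0.17, adjusted p = 7.06e-06) and DLL3 (1.95 ± 0.15, adjusted p = 9.76e-05) were higher in H660. The ligand gene JAG1 (−1.63 ± 0.47, adjusted p = 0.0216) and the receptor gene NOTCH3 (−2.59 ± 0.12, adjusted p = 1.54e-05) were lower. Of the luminal prostate factors 7 of 10 were lower in H660 and 2 higher, beside 17.9% and 20.1% of all genes tested, but 4 passed the filter through C4-2B MDVR alone and 1, ERG, through H660 alone, so these had to differ. ELF3 (4.36 ± 0.27) and ERG (2.85 ± 0.11) were the 2 that were higher in H660. Of the regulators of lineage plasticity, 5 of 13 tested were higher in H660, led by PEG10 (2.95 ± 0.10), and 3 lower, among them RB1 (−1.68 ± 0.16), beside the same shares of all genes. PEG10 passed through H660 alone, and 2 genes of this list, RB1 among them, through C4-2B MDVR alone.

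**Figure D2:**
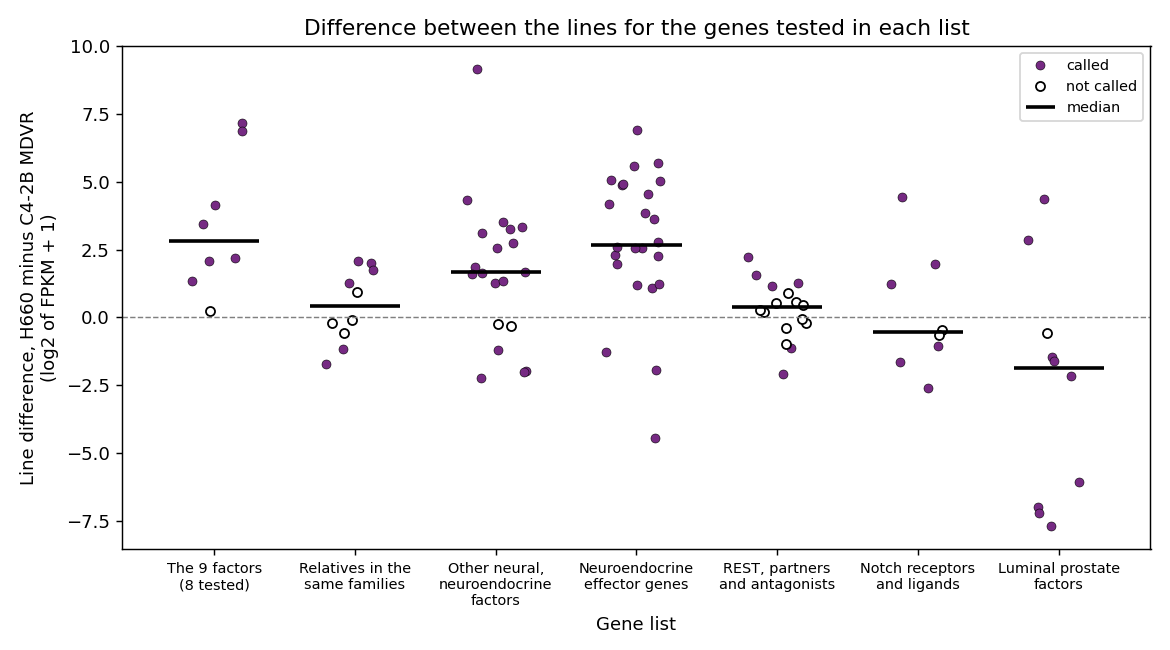
Difference between the lines, H660 minus C4-2B MDVR, in log2 of FPKM + 1, for the genes tested in each list, with 1 point per gene; filled points were called at an adjusted p under 0.05 and at least 2-fold, and bars are medians. The medians are 2.81 for the 9 factors (8 tested), 2.67 for the effector genes and −1.87 for the luminal factors and are descriptions, since genes present in 1 line alone passed the filter through that line.

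The knockdown comparison asked whether PLXND1 siRNA moved the factors. In H660, the line with the small decrease of PLXND1, no factor passed, and none reached 2-fold with both siRNAs. Limma called 0 of 15638 genes at an adjusted p under 0.05 (0.00%), with 647 (4.14%) at an unadjusted p under 0.05, none of them a factor, and voom called 0. By size, 0.703% of the 13946 genes at 1 FPKM or more in H660 were at least 2-fold from the control the same way with both siRNAs, 0.423% as higher and 0.280% as lower. The lowest unadjusted p among the factors in H660 was 0.109, for SOX2.

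SOX2 was at 1.17 (1.13 to 1.21) and 1.32 (1.27 to 1.36) times the H660 control with siRNA 1 and siRNA 2, a mean difference of 0.31 ± 0.16 log2 units. NKX2-1 was at 0.814 (0.794 to 0.834) and 0.921 (0.9 to 0.943) times the control, a difference of −0.21 ± 0.16. Both ratios of a gene share the single H660 control, and of 13946 genes at 1 FPKM or more in H660, 4730 were above it and 5464 below it with both siRNAs, so lying on 1 side of it is common. Neither gene passed the limma test (adjusted p = 1 for both). POU3F2 (1.13 and 1.09 times), PROX1 (1.15 and 1.12) and ONECUT2 (1.27 and 1.10) were above the control with both siRNAs, at 0.14 ± 0.15, 0.15 ± 0.15 and 0.16 ± 0.23 log2 units. INSM1 was at 0.878 and 0.991 times the control, a difference of −0.10 ± 0.16. The siRNAs pointed in opposite directions for HES6, at 0.833 (0.803 to 0.864) and 1.11 (1.07 to 1.14), and for FOXA2, at 1.03 and 0.781, where both counting intervals reach past the control.

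In C4-2B MDVR, where PLXND1 was lower, the factors that could be measured were HES6 and ONECUT2. Neither passed: limma called 0 of 15638 genes (0.00%), with 921 (5.89%) at an unadjusted p under 0.05, none of them a factor, and voom called 0. By size, 1.13% of the 12888 genes at 1 FPKM or more there were at least 2-fold from the control the same way with both siRNAs, 0.791% as higher and 0.341% as lower. HES6 followed 1 siRNA. It was at 0.391 (0.357 to 0.429) times the control with siRNA 1 and 0.997 (0.927 to 1.07) times with siRNA 2, from 633 and 1301 fragments, against 1665 in the control. The mean difference, −0.65 ± 0.58 log2 units (adjusted p = 0.97), came from a single library: it was −1.30 with siRNA 1 alone and −0.00 with siRNA 2 alone. ONECUT2 was at 0.694 (0.609 to 0.791) times the control with siRNA 1 and 1.11 (0.982 to 1.25) times with siRNA 2, a mean difference of −0.11 ± 0.23. Values of both are ratios to the same control library.

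HES6 was lower with siRNA 1 than with siRNA 2 in both lines, at ratios of 0.754 (0.727 to 0.781) in H660 and 0.392 (0.356 to 0.432) in C4-2B MDVR. ONECUT2 with siRNA 1 was at 1.16 (1.06 to 1.28) times siRNA 2 in H660 and 0.625 (0.546 to 0.716) times in C4-2B MDVR. A difference of at least 2-fold between the siRNAs was seen in 2.02% of genes at 1 FPKM or more in H660 (1.03% lower with siRNA 1) and in 4.72% in C4-2B MDVR (1.91% lower with siRNA 1), and HES6 in C4-2B MDVR was the 1 factor among them. With 1 library per siRNA these are differences between libraries, and the intervals cover counting error only. PLXND1 in C4-2B MDVR also differed, with siRNA 1 at 0.507 (0.438 to 0.586) times siRNA 2; the part of this in the HES6 value was not tested.

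**Figure D3:**
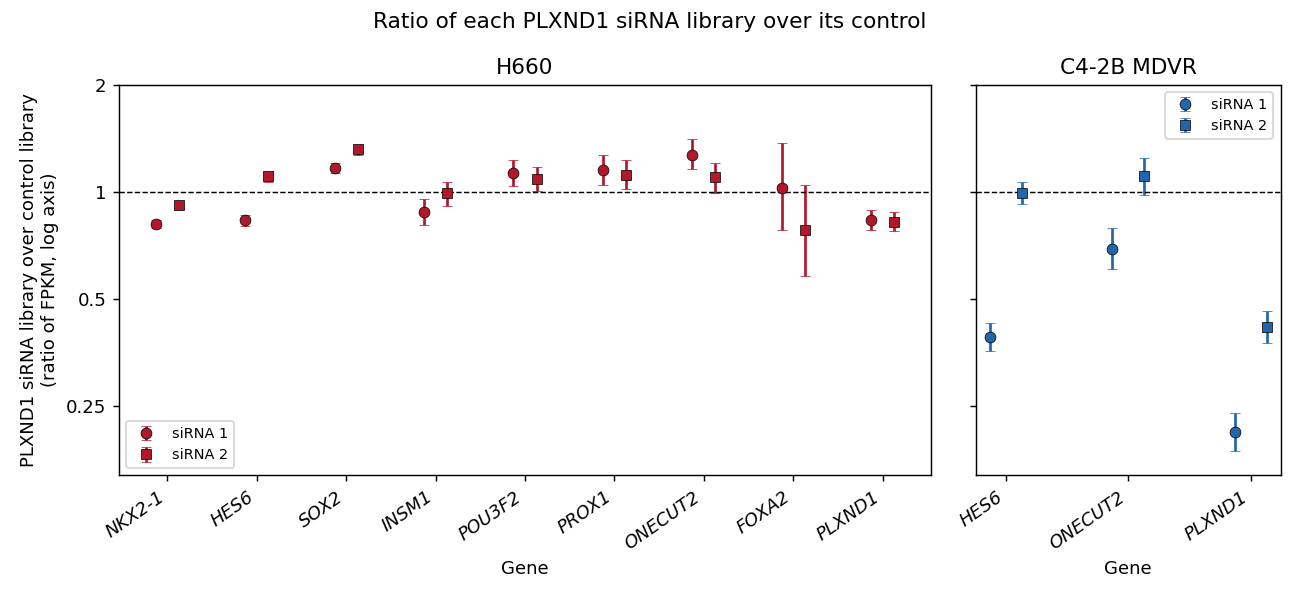
Ratio of each PLXND1 siRNA library over the control library of its line, on a log axis, for the factors with enough fragments and for PLXND1, in H660 (left) and C4-2B MDVR (right). Circles are siRNA 1, squares siRNA 2, and bars are 95% exact binomial intervals that cover counting error; the factors in H660 lie between 0.781 and 1.32, and HES6 in C4-2B MDVR lies at 0.391 with siRNA 1 and 0.997 with siRNA 2.

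The test of the difference of the siRNA effects between the lines, H660 minus C4-2B MDVR, was not passed by either factor, at 0.59 ± 0.82 log2 units for HES6 and 0.27 ± 0.33 for ONECUT2 (limma adjusted p = 0.985 for both). It called 0 of 15638 genes (0.00%), with 701 (4.48%) at an unadjusted p under 0.05. These errors are large, so they do not show that the effects were alike. Over both lines together the difference was −0.36 ± 0.37 for HES6 and 0.03 ± 0.16 for ONECUT2, with 0 of 15638 genes called (0.00%) and 654 (4.18%) at an unadjusted p under 0.05. The factors below 1 FPKM in C4-2B MDVR were below it in all 3 libraries of the line. INSM1 and NEUROD1 were listed at 0 in every library of the line, and SOX2, FOXA2 and POU3F2 had at most 1 fragment in a knockdown library. NKX2-1 had 4 and 8 fragments with siRNA 1 and siRNA 2, against 17 in the control, and PROX1 had 36 and 20, against 15. For NKX2-1 the ratios over the control were 0.242 (0.0593 to 0.743) with siRNA 1 and 0.601 (0.224 to 1.47) with siRNA 2. For PROX1 they were 2.47 (1.32 to 4.86) with siRNA 1 and 1.70 (0.828 to 3.57) with siRNA 2. The counting intervals lay to 1 side of equality with siRNA 1 and reached past it with siRNA 2, against the same control library.

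For each factor tested, the 2 protein-coding genes with the most similar profile over the 6 libraries were found by the root mean square distance of log2(FPKM + 1) after each gene was centred on its mean. The genes near HES6 were VGF, which encodes a neuroendocrine secretory protein (distance 0.193), and ERFE, which encodes the hormone erythroferrone (0.218). Both dipped in the same library, but they were chosen for closeness to a profile that holds this dip, so it supports nothing. VGF was at 13.6, 11.6 and 12.3 FPKM in H660 with siRNA 1, siRNA 2 and the control. In C4-2B MDVR it was at 1.01, 3.62 and 3.39 FPKM. ERFE was at 0.473, 2.29 and 1.39 FPKM in C4-2B MDVR in the same order. ONECUT2 was nearest to CEBPZ (0.032) and ZNF670 (0.034). Those nearest to NKX2-1 were CEACAM5 (0.12) and WFDC2 (0.131), to SOX2 ID4 (0.094) and AOC1 (0.154), to INSM1 STRA6 (0.039) and DISP3 (0.043), and to POU3F2 EYA1 (0.044) and CNTN4 (0.047). FOXA2 was nearest to LRP2 (0.019) and PROSER3 (0.028), and PROX1 to CD47 and KLHL2 (0.048 each). For the genes of H660 the distance mostly measures a like step between the lines in log2(FPKM + 1). For low genes the added 1 shrinks that step, so a neighbour need not share the ratio. PROSER3 was at 4.84 to 4.91 FPKM in C4-2B MDVR and 12.4 to 14.2 FPKM in H660. CD47 was at 7.24 to 8.39 and 34.3 to 39.4 FPKM. FOXA2 and PROX1 were under 1 FPKM in C4-2B MDVR, and so was LRP2, at 0.011 to 0.024 FPKM.

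**Figure D4:**
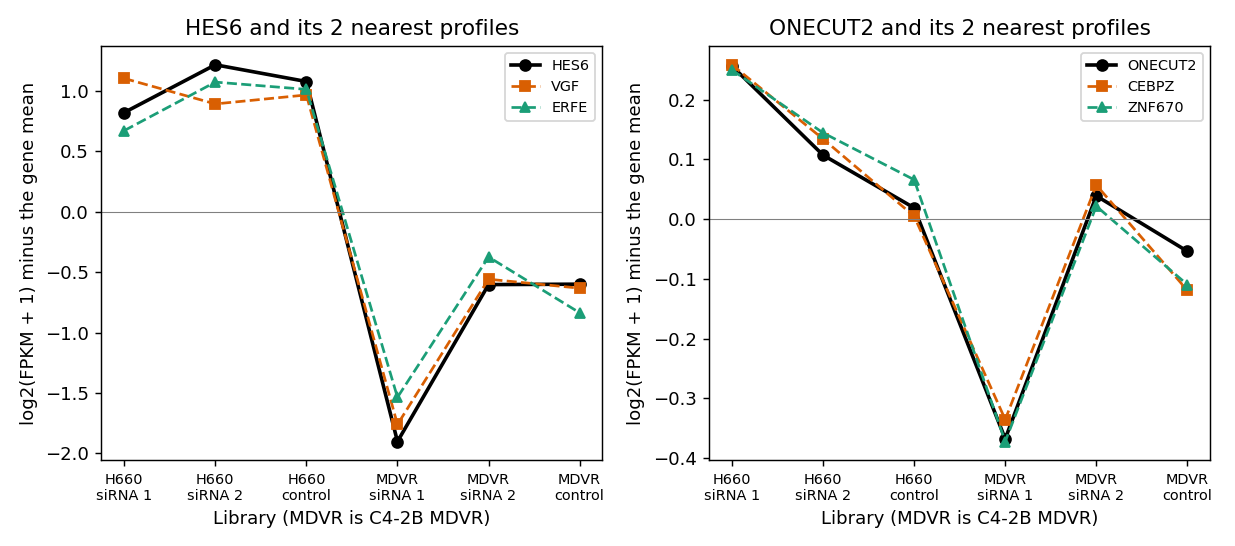
Profiles of HES6 (left) and ONECUT2 (right) with their 2 nearest protein-coding genes, as log2(FPKM + 1) minus the gene mean, over the 6 libraries on the horizontal axis; lines join the points of a gene and stand for no order. HES6, VGF and ERFE are lowest in the C4-2B MDVR library with siRNA 1, where they are at 15.4, 1.01 and 0.473 FPKM. VGF and ERFE were chosen for closeness to the HES6 profile, so their dip there supports nothing.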

How the data were processed

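The 6 mRNA libraries were read from both ends, 150 bases each, per the labels' protocols. The deposited values are FPKM computed by the authors; per the submitters' processing notes, HISAT and Cufflinks were used with build hg18, without versions. All 58735 IDs are in GENCODE 29 (GRCh38), which gave names, exon lengths and coordinates. FPKM times exon length fell on whole multiples of 1 step per library within 0.05 fragments for 100.0% of genes of at most 100 fragments, so fragment numbers were recovered from that step. The library total that the step implies was 0.926 and 0.920 times the sum of recovered fragments in the C4-2B MDVR siRNA 1 and siRNA 2 libraries. It was 1.011 times that sum in their control and 1.069 to 1.082 times in H660. Ratios of fragments used the implied totals, and their intervals do not cover this scaling. Intervals (95%, exact Poisson or binomial) and limits of 3 fragments reflect counting error alone.

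Log2(FPKM + 1) was tested in limma 3.58.1 (R 4.3.3) with a mean trend, two-sided, with Benjamini-Hochberg adjustment over the 15638 genes with a mean of at least 1 FPKM in a line. The additive fit of line and treatment has 3 residual degrees of freedom. The fit of 4 groups has 2, all from the knockdown pairs, and takes the single controls to vary as those pairs do. The pseudocount understates changes of low genes. Recovered fragments were also tested with limma's voom. The code was tested on simulated data.

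The members and lists were chosen with earlier results of these data known. From each list the text could name up to 6 genes called between the lines, by size, and up to 4 per line on the same side of the control with both siRNAs. For the siRNA names a minimum of 1.5-fold was added later, after the files were read. FOXA1, REST, SRRM4 and SFTPB are outside this rule and were named after their values were seen. The rule also did not pick the other lung-type markers, SFTA3, SFTPA1, SFTPC, SCGB1A1, SCGB3A2 and NAPSA, or the luminal markers KRT8 and KRT18. Nor did it pick BEX1, SYT4 and KIF5C, or the overlapping genes NKX2-1-AS1 and SOX2-OT. Some genes of these lists are counted but not reported here by name.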

Additional observations from a re-analysis of the deposited data

How the results depend on the processing

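The number of genes called between the lines ran from 5788 to 7479 over 13 alternatives, and the calls of the 8 factors tested did not change in any of them. The sizes did: with a pseudocount of 0.1 or by voom, differences of factors near 0 in C4-2B MDVR depend on how 0 is handled. That of INSM1 ran from 4.11 to 10.86 over the alternatives. HES6 stayed between 1.64 and 2.39, and ONECUT2, which was not called, between 0.00 and 0.46. Leaving out mitochondrial genes with rescaling moved the median line difference of all genes tested to 0.26 log2 units, against −0.00 in the main fit.

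No factor was called for the siRNAs under any alternative. Elsewhere, a pseudocount of 0.1, quantile normalization, leaving out short RNAs with rescaling, and the siRNA number as a replicate block each called 1 gene in H660, MT-TR, and leaving out short RNAs called 2 in C4-2B MDVR, IFIT1 and OASL. Without the filter 851 genes were called in C4-2B MDVR, 876 in H660 and 1372 for the difference between lines, of which 19, 15 and 20 pass the filter used here; the cause was not tested. The genes at least 2-fold from control with both siRNAs were 273 and 223 in C4-2B MDVR and H660 with a pseudocount of 0.1, 261 and 209 without the filter, and 41 in H660 without short RNAs, against 146 and 98. Leaving out short RNAs also moved the median knockdown effect of all genes in C4-2B MDVR to −0.18, against 0.02.

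Directions turned for values that did not pass. ONECUT2 over both lines was at −0.08 without short RNAs, and leaving out 1 library at a time it ran from −0.11 (without the H660 control) to 0.16, with −0.04 and −0.02 without the C4-2B MDVR siRNA 2 and the H660 siRNA 1 libraries. In C4-2B MDVR it ran from −0.31 to 0.10, the last without siRNA 1. For HES6 the difference of the siRNA effects between the lines ran from −0.06, without the C4-2B MDVR siRNA 1 library, to 1.24. In H660, HES6 ran from −0.26 to 0.14, the last without siRNA 1, and FOXA2 from −0.21 to 0.03, the last without siRNA 2. Leaving out 1 library at a time called 5851 to 6028 genes between the lines and 0 for the siRNAs. The siRNA numbers did not pair the libraries across lines (correlation of the siRNA differences −0.008 over 11196 genes). Depth limits FOXA2, NEUROD1 and the low C4-2B MDVR values.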

Other observations

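HES1, the Notch effector that HES6 opposes, was above the control in all 4 PLXND1 siRNA libraries, at 16 and 14.3 FPKM with siRNA 1 and siRNA 2 in H660, against 9.03 FPKM in its control. In C4-2B MDVR it had 30.6 and 38.2 FPKM, against 22 FPKM with control siRNA. Each pair of siRNA libraries shares 1 control, the gene was named for lying on 1 side of it, and 4730 of 13946 genes in H660 and 4362 of 12888 in C4-2B MDVR were above the control with both siRNAs. It was 1.77 (1.58 to 1.99) and 1.59 (1.41 to 1.78) times the control in H660, and it did not pass the limma test in either line (adjusted p = 1 in H660 and 0.822 in C4-2B MDVR) or over both (0.65 ± 0.13 log2 units, adjusted p = 0.985). In C4-2B MDVR, ISL2, a LIM homeodomain factor of motor neurons, was at 3.80 and 5.68 FPKM, against 1.72 FPKM in the control (adjusted p = 0.718), and ELF3, an epithelial ETS factor, was at 9.55 and 6.02 FPKM, against 2.93 FPKM in the control (adjusted p = 0.761).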
